A study of Mus musculus with 11 samples.

Results

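Nipal1, Sh2d1a, Susd3 and Reep6 are 4 genes outside the light response that stood far lower in the retina of mice without Nrl than in wild-type retina. They were chosen by that steep fall in normalized counts, and found by symbol, among the 23284 genes of the deposited table, and all 4 were among the 14584 genes with enough reads to be tested, Nipal1 and Sh2d1a through their wild-type libraries alone. Because the genotype contrast itself chose them, their own levels in it are given as a description with no test. The study measured mRNA of whole retina at postnatal day 21 in 5 wild-type and 6 Nrl knock-out (Nrl -/-) libraries. The labels give no strain, no treatment, no further allele and no extent of the Nrl deletion, and nothing in them says that the libraries of a genotype are separate animals. The p-values therefore rest on the spread between libraries, which may be technical. Values are normalized counts, reads per gene divided by a size factor of the library, from 16126210 to 20685840 reads per wild-type library and 14907613 to 19877314 per knock-out library.

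NRL is a leucine zipper transcription factor of the Maf family that directs photoreceptor precursors to the rod fate, and mouse retina without it has cone-like photoreceptors in place of rods. The 4 genes have unlike known roles. REEP6 belongs to a family of proteins that shape the endoplasmic reticulum, is made in a rod form, and is a retinitis pigmentosa gene in humans. SUSD3 is a sushi domain protein of the cell surface linked to oestrogen receptor signalling in human breast cancer cells. NIPAL1 is a magnesium transporter of the NIPA family. SH2D1A, also called SAP, is a small adaptor of T and NK cells that binds the tails of SLAM receptors, and its loss in humans causes X-linked lymphoproliferative disease.

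The targeted gene checks the labels. Nrl stood at 37017 ± 1947 normalized counts in wild-type libraries (SD, n = 5) and at 51.7 ± 5.1 in knock-out libraries (SD, n = 6). All 12 genes of a list of rod light response genes were called lower and all 10 cone light response genes higher, at a limma Benjamini-Hochberg adjusted p under 0.05. Over all tested genes 46.3% were called, 23.6% higher and 22.7% lower. Wild-type and knock-out libraries did not overlap for 30.9% of tested genes, and for 14.5% with the knock-out lower. In whole retina, fewer cells of a type and less RNA per cell cannot be told apart. The same call rule gave 5 higher and 1 lower of 8 bipolar cell genes, 4 higher and 1 lower of 7 Müller glia genes, and 1 higher and 1 lower of 8 retinal pigment epithelium genes.

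RefSeq promoter sequence of build GRCm38.p6 was at hand for Nipal1 and Susd3. It is shown here with that of Cnga1, the rod channel subunit gene next to Nipal1, because both genes of that pair were nearly silent in the knock-out. Each line gives the 250 bases before the annotated start, on the gene's own strand from 5′ to 3′. The windows are chr5:72647546-72647795 (plus strand) for Nipal1, chr13:49248295-49248544 (minus strand) for Susd3 and chr5:72642753-72643002 (minus strand) for Cnga1. Capitals mark matches to the motifs searched.
Nipal1: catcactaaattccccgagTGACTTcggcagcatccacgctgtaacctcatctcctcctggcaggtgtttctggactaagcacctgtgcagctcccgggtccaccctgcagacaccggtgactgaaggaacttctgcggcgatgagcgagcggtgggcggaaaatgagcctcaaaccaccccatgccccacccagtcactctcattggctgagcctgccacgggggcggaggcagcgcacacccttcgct
Susd3: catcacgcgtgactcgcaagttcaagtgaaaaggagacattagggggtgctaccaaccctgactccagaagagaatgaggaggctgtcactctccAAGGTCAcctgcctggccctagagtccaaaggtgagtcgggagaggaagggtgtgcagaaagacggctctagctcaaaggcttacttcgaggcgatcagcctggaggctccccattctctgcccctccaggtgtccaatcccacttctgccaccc
Cnga1: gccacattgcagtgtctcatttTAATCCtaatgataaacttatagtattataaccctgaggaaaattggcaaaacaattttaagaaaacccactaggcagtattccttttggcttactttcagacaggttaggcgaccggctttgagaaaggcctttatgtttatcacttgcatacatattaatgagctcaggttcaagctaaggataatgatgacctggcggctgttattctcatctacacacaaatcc
The windows differed in base composition. G and C made up 61.2% of the Nipal1 window, 56.8% of the Susd3 window and 38.4% of the Cnga1 window. 7 motifs were searched on both strands, and the share of 32851 RefSeq promoter windows of the same length that hold each is given with it. TGCTGA, a half-site of Maf factors including NRL (16.1% of windows), and its longer form TGCTGAC (3.81%), which contains it, had no match in the 3 windows. TAATCC, a site of the homeodomain factor CRX (6.25%), matched once, in Cnga1, 228 bases before the start on the gene's strand. The shorter core TAATC (19.8%) lies inside that match and had no other. AAGGTCA, a nuclear receptor half-site (4.08%), matched once, in Susd3, 155 bases before the start on the gene's strand. AAGTCA, a half-site of the NR2E3 type (13.1%), matched once, in Nipal1, 231 bases before the start on the opposite strand, so that it reads TGACTT in the line above. TATAAA (12.4%) had no match in the 3 windows.

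Reep6 was the most abundant of the 4 genes. Its wild-type libraries held 29361, 30589, 26803, 27515 and 27679 normalized counts. Its knock-out libraries held 493, 525, 586, 499, 532 and 554. The groups lay far apart, and within each genotype the libraries were close to each other. The means were 28389 ± 1547 (SD, n = 5) and 532 ± 35 (SD, n = 6), a log2 difference of -5.74 with a standard error of 0.05 on the log2(normalized count + 1) scale. The level left was 1.88% of wild type, with a 95% exact counting interval of 1.81% to 1.94%.

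Susd3 had 2749, 2527, 2402, 2342 and 2538 normalized counts in the wild-type libraries. In the knock-out libraries it had 22.2, 21.0, 27.9, 30.6, 20.2 and 19.6. Every knock-out library still held Susd3 reads, 148 in all against 12196 in wild type. The means were 2512 ± 156 (SD, n = 5) and 23.6 ± 4.5 (SD, n = 6), a log2 difference of -6.69 with a standard error of 0.11. The level left was 0.948%, with a counting interval of 0.800% to 1.11%.

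Sh2d1a had 162.9, 163.9, 183.5, 183.3 and 190.3 normalized counts in the wild-type libraries. In the knock-out libraries it had 0, 0, 0.871, 0.926, 1.84 and 0.980. The wild-type libraries together held 861 reads and the knock-out libraries 5, and 2 knock-out libraries had none. The means were 176.8 ± 12.5 (SD, n = 5) and 0.769 ± 0.694 (SD, n = 6), a log2 difference of -6.75 with a standard error of 0.27. The level left was 0.454%, with a counting interval of 0.147% to 1.06%. Part of its sequence is not its own. Of the 5571 stretches of 50 bases in its GENCODE transcripts, the length of 1 read, 25.6% also occur in transcripts of other genes. Matches on the same and on the opposite strand were counted together. Over its protein-coding transcripts the share was 34.4% of 1556 stretches. For Nipal1, Susd3 and Reep6 that share was 0. Tenm1 overlaps Sh2d1a on the opposite strand in the same annotation, and the strand setting of the counting is not given, so the source of the few Sh2d1a reads in the knock-out is uncertain. How much of the shared sequence is this overlap was not tested. Sh2d1a is X-linked, and all 11 libraries had the same sex-linked pattern, with 1.20 to 5.82 normalized counts of Xist and 3831 to 5497 of 4 Y-linked genes summed.

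Nipal1 had 180.9, 186.9, 212.6, 206.2 and 180.3 normalized counts in the wild-type libraries. In the knock-out libraries it had 0, 0, 0, 0.926, 0 and 0. All 6 knock-out libraries together held 1 Nipal1 read, against 942 in wild type. That read lay in knock-out replicate 4. The wild-type mean was 193 ± 15 (SD, n = 5), and the log2 difference was -7.44 with a standard error of 0.24. The level left was 0.0829%, with a counting interval of 0.00210% to 0.463%, which corresponds to a 1206-fold lower level with an interval of 216-fold to 47687-fold.

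**Figure D1:**
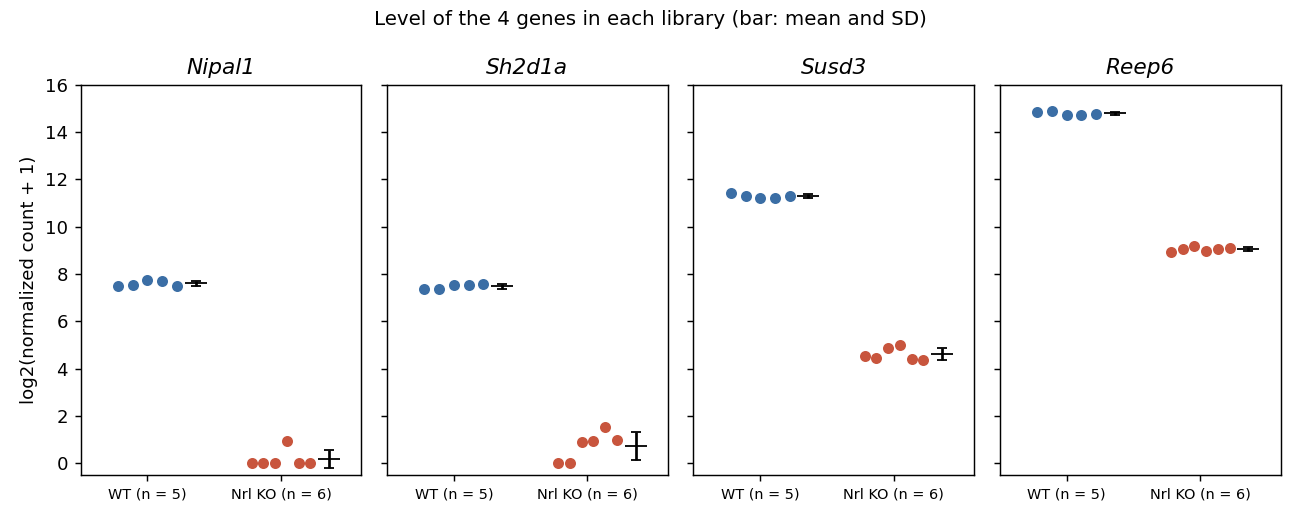
Level of each of the 4 genes in every library, as log2(normalized count + 1) on the vertical axis, with wild-type libraries in blue (n = 5) and Nrl knock-out libraries in red (n = 6). Black bars give the mean and SD on that scale. No knock-out library reaches any wild-type library, for 4 genes that were chosen by their steep fall. The groups do not overlap for 30.9% of the 14584 tested genes, and for 14.5% with the knock-out lower. The closest approach is Reep6, whose lowest wild-type library is 45.7 times its highest knock-out library.

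The order of the shares left was Nipal1, Sh2d1a, Susd3 and Reep6, from lowest to highest. The counting intervals of Nipal1 and Sh2d1a overlapped, as did those of Sh2d1a and Susd3, so the order within these pairs is uncertain. Differences between genes in the share left were not tested. Susd3 and Reep6 were apart, both by their intervals and by library: relative to the wild-type mean, knock-out libraries held 0.780% to 1.22% of Susd3 and 1.74% to 2.06% of Reep6. The gap between the lowest wild-type and the highest knock-out library was 195-fold for Nipal1, 88.6-fold for Sh2d1a, 76.6-fold for Susd3 and 45.7-fold for Reep6. By the log2 difference the 4 genes were the 9th, 10th, 11th and 20th lowest of the 14584 tested genes. Of 11278 tested genes with a wild-type mean of at least 100 normalized counts, 11 kept at most 1% of that mean, 3 of them from these 4, and 19 kept at most 2%, all 4 among them. These ranks follow from how the genes were chosen. The authors' deposited table gives log2 fold changes of -6.34 for Nipal1, -5.92 for Sh2d1a, -6.57 for Susd3 and -5.71 for Reep6. There too Reep6 had the smallest fall of the 4.

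**Figure D2:**
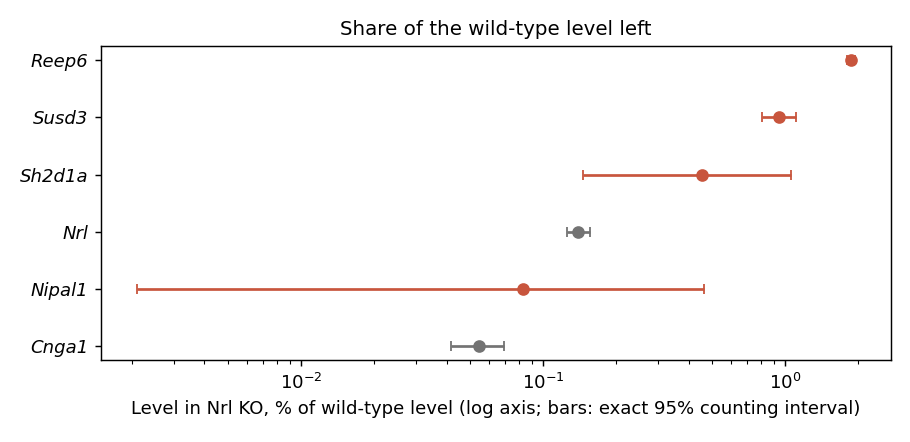
Level in Nrl knock-out retina as a percentage of the wild-type level, on a log axis, for the 4 genes (red) and for Nrl and Cnga1 (grey); bars are exact 95% counting intervals. Reep6 sits at 1.88% and Susd3 at 0.948% with narrow intervals, while the intervals of Sh2d1a and Nipal1 are wide because they rest on 5 reads and 1 read.

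How far libraries of a genotype differed from each other depended on depth. For Nipal1 and Sh2d1a the coefficient of variation over the wild-type libraries was 7.77% and 7.09%, close to the 7.29% and 7.62% that counting alone gives. For Susd3 it was 6.23% against 2.02% from counting, and for Reep6 5.45% against 0.601%, so these had spread beyond counting. In the knock-out, the spread of Susd3 was 19.3% against 20.1% from counting, while that of Reep6 was 6.55% against 4.25%. The 4 genes did not share a highest library. In wild type it was replicate 3 for Nipal1, 5 for Sh2d1a, 1 for Susd3 and 2 for Reep6.

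Levels between genes were compared per kilobase of GENCODE exon. In wild type Reep6 had 12858 normalized counts per kilobase, higher than in 99.8% of 13205 tested genes with a length. Susd3 had between 934 and 1096 in its 5 libraries, with a mean above 93.9% of them. Sh2d1a, with 116 per kilobase, and Nipal1, with 46.0, lay below the median of 142. In the knock-out the 4 genes did not end at a common level. Reep6 kept 241 per kilobase, still above 65.1% of the genes and above their knock-out median of 143. Susd3 kept 9.40 per kilobase, above 8.13% of the genes, Sh2d1a 0.505 and Nipal1 0.0367.

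Genes with the most similar profile were ranked by the root mean square difference of log2(normalized count + 1) over the 11 libraries, each gene centred on its wild-type mean, among the 11278 genes above. With 2 genotypes, this measure mostly ranks genes by the size of their difference. For Reep6 the nearest were Gucy2f, a photoreceptor guanylate cyclase (0.28), Cngb1, a rod channel subunit (0.30), and Gramd2 (0.35). For Susd3 they were the water channel Aqp1 (0.32), Sh2d1a (0.44) and Gucy2f (0.49). For Sh2d1a they were Susd3 (0.44), Aqp1 (0.49) and Glb1l3 (0.60). For Nipal1 they were the rod exchanger Slc24a1 (0.57), Susd3 (0.59) and Hdc, the histamine-synthesizing enzyme (0.66). Distances were larger for the genes with few reads left.

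Relatives of the 4 genes did not share their near loss. Of 23 genes of the Reep and NIPA families and genes sharing the Susd or Sh2d name, 17 were tested. 5 were called higher (29.4% of the 17, against 23.6% of all genes) and 3 lower (17.6%, against 22.7%), of which 1 was still lower under total-count scaling. Their median log2 difference was 0.03, and that of all tested genes was -0.01. When libraries were scaled to their total count instead, the median of all genes moved to 0.13 and the share of higher among all calls from 51.1% to 77.4%, so small differences below are read against that shift. Longest stretches of transcript sequence shared with relatives were 23 bases or shorter, which is less than a read of 50 bases; the row of Susd6 was not compared.

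Reep4, whose product clears endoplasmic reticulum from chromosomes in mitosis, was the relative with the largest difference. Its wild-type libraries held 57.5, 58.0, 41.7, 69.8 and 84.1 normalized counts. Its knock-out libraries held 240, 203, 270, 195, 219 and 243. The groups did not overlap, the level was 3.67 times as high in the knock-out, and the log2 difference was 1.89 with a standard error of 0.14 (limma adjusted p = 3.1e-09). Reep3 rose by 0.22 (adjusted p = 0.013). Reep2 passed narrowly, at 0.10 (adjusted p = 0.048), and leaving out any of 9 of the 11 libraries took its adjusted p to between 0.054 and 0.112. Reep1 and Reep5, which shape tubules of the endoplasmic reticulum, were not called, at -0.09 and -0.06, and both differences were above 0 under total-count scaling (0.05 and 0.07). Summed over these 5 relatives the level was 7175 ± 289 (SD, n = 5) in wild type and 7282 ± 269 (SD, n = 6) in the knock-out, a difference of 1.49% (two-sided exact permutation test over the library labels, p = 0.543 adjusted over 4 families). With total-count scaling that difference was 11.6% (exact permutation adjusted p = 0.0043). Reep6 supplied 79.3% to 80.8% of the Reep family's normalized counts in wild-type libraries and 6.10% to 7.71% in knock-out libraries. Per kilobase, Reep5 at 1288 normalized counts was the highest of the other Reep genes in wild type, against 12858 for Reep6.

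NIPA relatives moved both ways. Nipal2 rose from 323 ± 10 (SD, n = 5) to 504 ± 31 (SD, n = 6), a log2 difference of 0.64 with a standard error of 0.06 (limma adjusted p = 3.2e-08). Nipal3, the most abundant of them, fell from 3490 ± 124 to 3074 ± 111, a log2 difference of -0.18 (adjusted p = 0.00079), but was not called under total-count scaling, at -0.05. Nipa2 rose by 0.19 (adjusted p = 0.029), a call that ended, at adjusted p of 0.057 to 0.089, without any 1 of wild-type replicates 3, 4 and 5 or knock-out replicates 3 and 6. Nipa1 was not called, at -0.06, and stood at 0.07 under total-count scaling. Nipal1 itself made up 3.87% to 4.86% of its family's normalized counts in wild type and at most 0.0219% in a knock-out library. The other family members summed to 4369 ± 128 against 4168 ± 124, a sum that fell by 4.61% without Nrl (exact permutation adjusted p = 0.040), but a rise by 4.83% under total-count scaling (exact permutation adjusted p = 0.023). The adjusted p was between 0.032 and 0.108 without any 1 library, and stayed under the threshold only without wild-type replicate 3 or knock-out replicate 2. Nipal3 made up most of this sum in both genotypes.

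Among genes that share the Susd name, Susd3 supplied 52.1% to 56.6% of the normalized counts in wild type and 0.894% to 1.40% in the knock-out. Susd2 was lower by 0.23 on the log2 scale (adjusted p = 0.037), a call that ended, at adjusted p of 0.051 to 0.120, without any 1 of 8 libraries, and under total-count scaling. Susd4 (0.10), the row of Susd6 (0.05), Susd1 (0.03) and Susd5 (-0.01) were not called. Under total-count scaling Susd4 (0.23) and Susd6 (0.19) were called higher, and Susd5 stood at 0.11. Among Sh2d-named genes, Sh2d5 fell from 781 ± 101 (SD, n = 5) to 564 ± 49 (SD, n = 6), a log2 difference of -0.46 (adjusted p = 0.00014) and of -0.33 under total-count scaling. Sh2d3c (-0.08) and Sh2d7 (0.11) were not called, and the difference of Sh2d3c was 0.05 under total-count scaling. Sh2d1b1 and Sh2d1b2, the closest relatives of Sh2d1a, had 1 and 0 reads in the wild-type libraries. The other Susd genes summed 2.69% higher (exact permutation adjusted p = 0.039; 0.032 to 0.105 without any 1 library, and under the threshold only without wild-type replicate 4 or knock-out replicate 4 or 6) in the knock-out, and the sum of the other Sh2d genes fell by 21.7% (exact permutation adjusted p = 0.0087). Under total-count scaling the Susd sum was 12.9% higher (exact permutation adjusted p = 0.0043) and the Sh2d sum fell by 14.0% (exact permutation adjusted p = 0.026). Most of the Sh2d sum was Sh2d5, with a mean of 781 out of 1036 for wild-type libraries and 564 out of 811 for knock-out libraries. Of the 8 genes summed, 5 stayed under 10 normalized counts in every library. The fall of the Sh2d sum is therefore read as that of Sh2d5, not of the family.

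**Figure D3:**
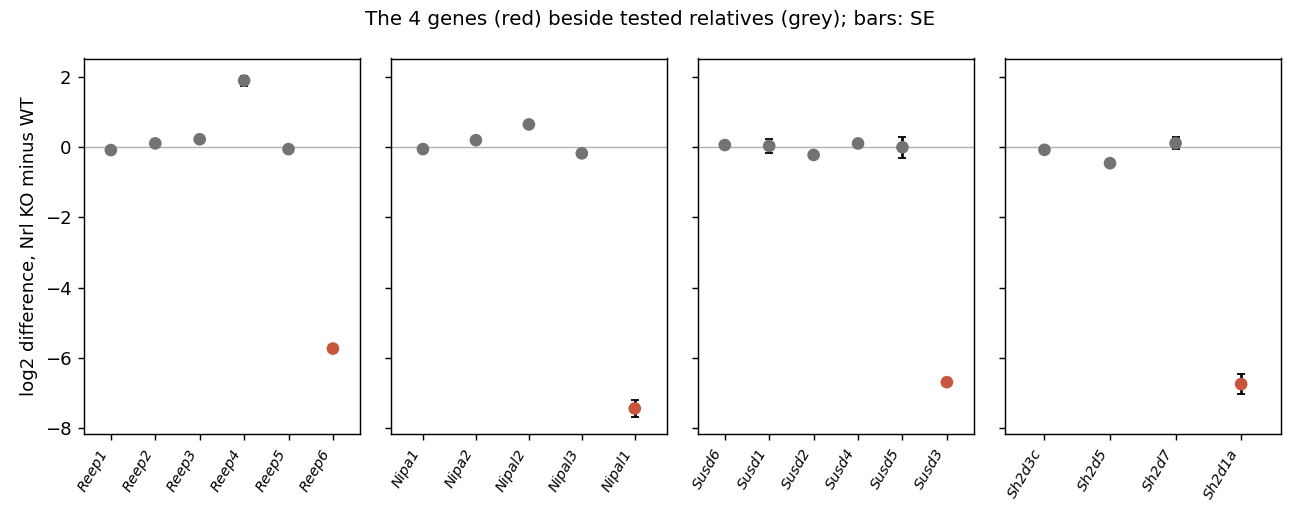
Difference between Nrl knock-out and wild type on the log2(normalized count + 1) scale, with its standard error as bars, for the 4 genes (red) and their tested relatives (grey). All 17 relatives lie between -0.46 and 1.89, while the 4 genes lie between -7.44 and -5.74.

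Other genes that shape the endoplasmic reticulum moved little. Of 21 tested, which include the 5 Reep relatives, 10 were called higher (47.6%, against 23.6% of all genes) and 1 lower (4.76%, against 22.7%). Their median log2 difference was 0.10. Under total-count scaling 16 were called higher, but that scaling called 5861 of all 14584 genes higher. Leaving out any 1 library gave 7 to 9 higher. After Reep4, the largest differences were those of Rtn2, a reticulon, which fell from 1334 ± 54 (SD, n = 5) to 997 ± 69 (SD, n = 6), a log2 difference of -0.42 (limma adjusted p = 1.8e-06), and of the small GTPase Rab18, which rose by 0.31 (adjusted p = 0.00018). Rtn3, the most abundant, was not called, at 0.02, but was called higher under total-count scaling, at 0.16.

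Of 17 tested genes of magnesium transport, which include the 4 tested NIPA relatives, 7 were called higher (41.2%, against 23.6%) and 4 lower (23.5%, against 22.7%). Their median was 0.02, and leaving out any 1 library gave 5 to 7 higher and 3 to 4 lower. Magt1, named a magnesium transporter and part of the oligosaccharyltransferase complex, rose from 241 ± 17 (SD, n = 5) to 398 ± 29 (SD, n = 6), a log2 difference of 0.72 (limma adjusted p = 7.5e-08). Mmgt2, a membrane magnesium transporter gene, also rose by 0.72 (adjusted p = 2.6e-08), and Nipal2 was the third, as given above. The 4 called lower, between -0.26 and -0.18, were all uncalled under total-count scaling. Of 4 tested genes linked to oestrogen signalling, none was called by limma, and 1 had an unadjusted p under 0.05. edgeR and DESeq2 also called 0 of them, and total-count scaling 2, both higher. That scaling called 5861 of all 14584 genes higher. Greb1, the most abundant, stood at 333 ± 79 and 439 ± 101, a log2 difference of 0.41 (adjusted p = 0.123).

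Sh2d1a is known from T and NK cells, and markers of those cells were looked up in the same libraries. Of 22 T and NK cell markers in the table, 16 stayed under 10 normalized counts in every library and 6 had no read in wild type. Cd3e, a chain of the T cell receptor complex, had no read in the wild-type libraries, where Sh2d1a stood at 176.8. Its partners Cd3d and Cd3g averaged 0.184 and 0.368 there. Together the 22 markers summed to between 109 and 119 normalized counts in wild-type libraries and between 185 and 222 in knock-out libraries. These sums rest mostly on 2 genes, the 2 markers that passed the filter: Zap70 in wild type, and Zap70 and Cd8a in the knock-out. Cd8a, a T cell co-receptor chain, rose from 1.20 to 5.52 normalized counts per wild-type library to 56.1 to 111 per knock-out library, a log2 difference of 4.03 (limma adjusted p = 3.1e-10); it met the filter through the knock-out libraries alone. Zap70, a kinase below the T cell receptor, fell from 80.1 ± 8.9 to 60.1 ± 9.5, a log2 difference of -0.42 (adjusted p = 0.016). That call ended under total-count scaling (-0.29, adjusted p = 0.085) and without the shallowest library of each genotype, replicate 1 of wild type and 2 of the knock-out (-0.26, adjusted p = 0.090). B cell markers, none of them tested, summed to between 3.68 and 8.73 in wild type and 2.33 and 11.1 in the knock-out.

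Genes of a list of SLAM family members and signalling genes were mostly scarce in wild-type retina, and several rose in the knock-out. Which of their products bind SAP was not examined. Of 13 tested genes of the SLAM and SAP list, 7 were called higher (53.8%, against 23.6%) and 1 lower (7.69%, against 22.7%). Their median log2 difference was 0.67. Slamf7, a receptor of NK and other immune cells, had no read in the wild-type libraries and 18.3, 16.3, 14.8, 14.8, 13.8 and 8.82 normalized counts in the knock-out libraries. This is at least 23.5-fold higher, taking 3 reads over the wild-type group as the floor (limma adjusted p = 8.9e-09). Cd48 rose from 1.55 ± 1.38 (SD, n = 5) to 22.1 ± 4.9 (SD, n = 6), a log2 difference of 3.33 (adjusted p = 2.6e-07), and Ly9 from 1.97 ± 1.66 to 24.4 ± 7.2, a difference of 3.19 (adjusted p = 2.0e-07). The 1 gene called lower, named here after its values were seen, was the receptor gene Slamf1. Its wild-type libraries held 15.6, 19.3, 12.6, 14.2 and 18.0 normalized counts and its knock-out libraries 3.86, 4.66, 6.97, 5.56, 5.52 and 5.88, a log2 difference of -1.41 with a standard error of 0.24 (limma adjusted p = 1e-04). Without any 1 wild-type library Slamf1 no longer met the filter of 10 normalized counts in 5 libraries and was not tested. The phosphatase gene Ptpn11, the most abundant of the list, was not called, at 0.05, and was called higher under total-count scaling, at 0.19. The kinase gene Fyn, also named after its values were seen, was not scarce and was not called. It stood at 1056 ± 30 and 1011 ± 44, a log2 difference of -0.06 (limma adjusted p = 0.257), and at 0.07 under total-count scaling. Of the genes called higher, Slamf7, Slamf9, Cd48 and Ly9 were under 10 normalized counts in every wild-type library and met the filter through the knock-out libraries alone. Cd84 reached 10 in only 1 wild-type library, replicate 5, and so also passed through the knock-out. Only Ptpn6 and Inpp5d of the genes called higher had at least 10 in every wild-type library. The share called higher and the median of the list are raised by this filter and are not read as a rise of the pathway.

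Markers of microglia were also higher in the knock-out. All 10 microglial genes were called higher (23.6% of all genes were), with a median log2 difference of 2.35, and their sum was 1392 to 1810 normalized counts in wild-type libraries and 4505 to 6406 in knock-out libraries. 1 of the 10, Aif1, met the filter through the knock-out libraries alone. The part of microglia in the difference of the SLAM list was not tested.

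**Figure D4:**
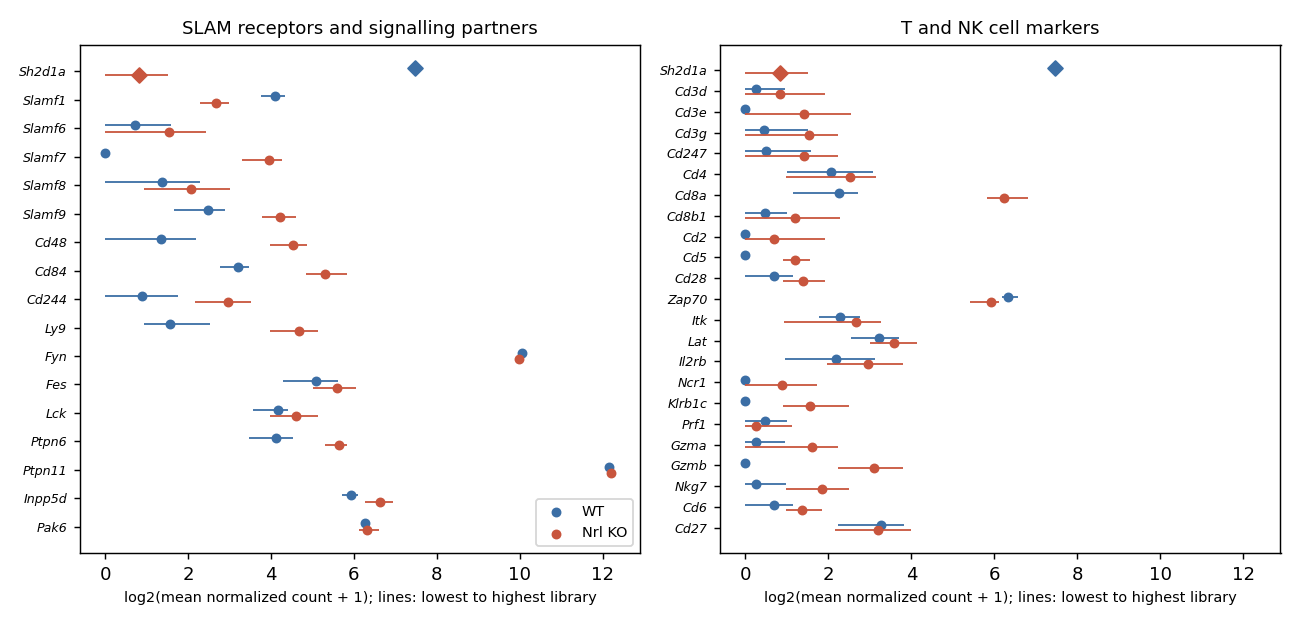
Sh2d1a (diamonds) beside SLAM receptors and signalling partners (left) and T and NK cell markers (right), as log2(mean normalized count + 1), in wild type (blue, n = 5) and Nrl knock-out (red, n = 6); lines run from the lowest to the highest library. In wild type Sh2d1a, at a mean of 176.8, is above all 22 T and NK cell markers, of which Zap70 at 80.1 is the highest.

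The neighbours of each gene were the 3 nearest protein-coding genes on either side, 24 places in all. Of these 22 matched a row of the table and 18 were tested, with 2 called higher (11.1%, against 23.6% of all genes) and 8 lower (44.4%, against 22.7%). Under total-count scaling 6 were called higher, where 5861 of all 14584 genes were. One neighbour was nearly silent in the knock-out, at 0.0542% of its wild-type level. Cnga1, the rod cyclic nucleotide-gated channel subunit, lies next to Nipal1 on the opposite strand with the starts facing away from each other, 5044 bases apart in RefSeq. It fell from 18675 ± 822 normalized counts (SD, n = 5) to 10.04 ± 2.57 (SD, n = 6), a log2 difference of -10.76 with a standard error of 0.14 (limma adjusted p = 1.2e-17). On the other side of Nipal1, the kinase gene Tec fell from 34.1 ± 5.8 to 18.3 ± 5.1, a difference of -0.89 (adjusted p = 0.0014), and its relative Txk, untested, averaged 3.39 and 0.509. Slain2 (0.05) and Nfxl1 (0.09) were not called, though Slain2 was under total-count scaling, at 0.18.

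Card19, a caspase recruitment domain gene listed in the table under an older symbol, lies on the strand of Susd3 beyond its end. Its wild-type libraries held 260, 267, 251, 290 and 305 normalized counts. Its knock-out libraries held 82.9, 57.1, 86.2, 57.4, 63.5 and 56.8. The groups did not overlap and 24.5% of the wild-type level was left, a log2 difference of -2.03 with a standard error of 0.12 (limma adjusted p = 6.2e-11). Wnk2 fell by 0.38 on the log2 scale (adjusted p = 0.00021). Fgd3, Bicd2, Ippk and Ninj1 were not called, between -0.06 and 0.29. Under total-count scaling Ippk and Ninj1 stood above 0 (0.08 and 0.10) and Bicd2 was called higher (0.18).

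Pcsk4, a proprotein convertase gene, lies next to Reep6 on the opposite strand with the starts facing away from each other. Its wild-type libraries held 145, 218, 220, 223 and 229 normalized counts. Its knock-out libraries held 97.4, 66.5, 129, 85.2, 133 and 123. Wild-type replicate 1 was the lowest of its group but above every knock-out library. The log2 difference was -0.99 with a standard error of 0.18 (limma adjusted p = 0.00028). On the other side of Reep6, Adamtsl5 rose by 0.47 (adjusted p = 0.0022) and Plk5 by 0.39 (adjusted p = 0.0064), while Mex3d fell by 0.45 (adjusted p = 0.00030). Apc2 fell by 0.24 (adjusted p = 0.00046) and was not called under total-count scaling, at -0.10. The predicted gene 2310011J03Rik was not called, at 0.12, but was under total-count scaling, at 0.25. Near Sh2d1a, the apoptosis inhibitor gene Xiap fell from 14077 ± 923 (SD, n = 5) to 11019 ± 495 (SD, n = 6), a log2 difference of -0.35 (adjusted p = 4.0e-06), and the cohesin gene Stag2 was not called, at 0.10, but was under total-count scaling, at 0.24.

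**Figure D5:**
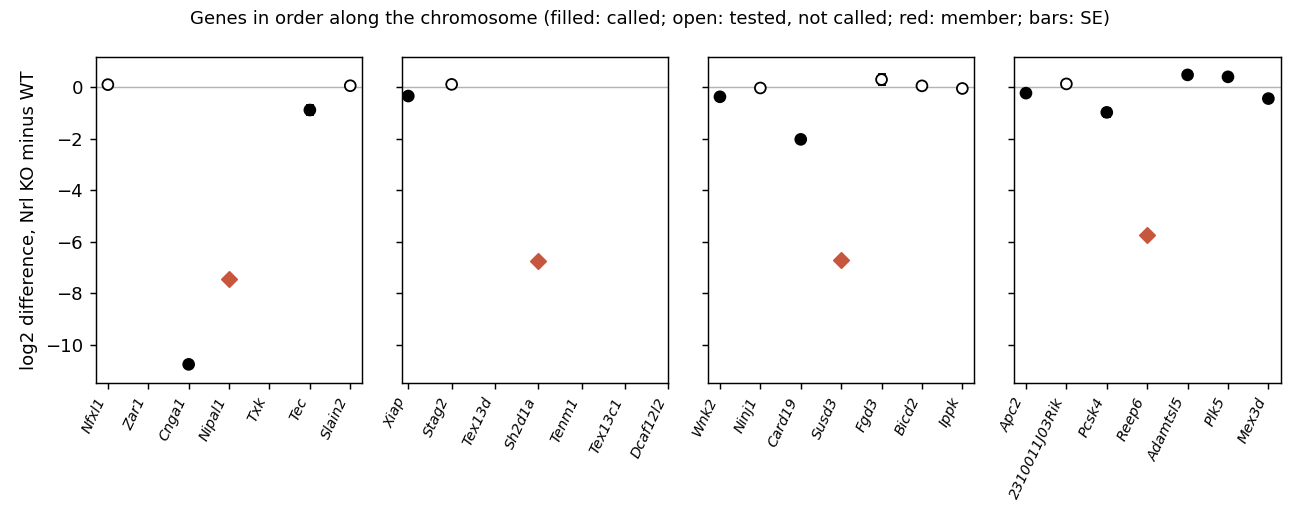
Difference between Nrl knock-out and wild type on the log2(normalized count + 1) scale, with its standard error as bars, for each of the 4 genes (red diamonds) and the 3 protein-coding genes on either side in chromosome order. Filled circles were called, open circles were tested and not called, and names without a point were not tested; the lowest points beside the 4 genes are Cnga1 at -10.76 and Card19 at -2.03.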

How the data were processed

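Polyadenylated RNA of retina was sequenced, stranded and from 1 end, to 50 bases per read, per the labels' protocols. Per the submitters' processing notes, mm9, DESeq, HTSeq 0.6.0 and TopHat2 2.1.1 were used, in roles not given there. The authors deposited a signal per gene and library, read counts divided by 1 size factor per library, and, per the file headers, a log2 fold change and an adjusted p-value per gene; the authors' p-values are not printed here. Values were whole multiples of 1 step per library to within 1e-06 of a read, which gave reads per gene and the depths.

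Genes with at least 10 normalized counts in at least 5 libraries were tested with limma 3.58.1 (trend, robust; R 4.3.3) on log2(normalized count + 1), genotype as the only term, with Benjamini-Hochberg adjustment over 14584 genes; differences on this scale understate those of low genes. Because the table is normalized, count tests (edgeR 4.0.16, DESeq2 1.42.0 on recovered reads) were alternatives, run with and without wild-type replicate 5, whose step lay close to 1. Intervals are exact Poisson or binomial, at 95%, and cover counting error only. Sums of relatives were compared by two-sided exact permutation of the library labels. Other alternatives were other scalings, filters, pseudocounts, a stricter threshold, a replicate block and leaving out libraries.

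The members and all lists were chosen with earlier results of these data known. Named genes were Nrl, the members, relatives with a mean of at least 10 in either genotype, up to 3 called genes and the most abundant gene of each further list described, all tested neighbours, and the 3 genes most like each member. Gene order, strand and names came from GENCODE and RefSeq tables of a build other than the counting's, so no coordinate but those of the promoter windows is given. A comparison of protein sequences was not made.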

Additional observations from a re-analysis of the deposited data

Results flagged for a closer look

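Groups of 5 or 6 libraries were examined for 39 genes, in 78 groups, for a library far from the rest of its group by Dixon's criterion, which chance alone meets in about 5% of groups. 4 were found, close to that share. Nipal1 had 0.926 normalized counts in knock-out replicate 4, which is 1 read, and 0 in the other 5 knock-out libraries. With 0 in the other 5, any 1 read meets the criterion, so this flag says nothing about the library. Pcsk4, the neighbour of Reep6, had 145.0 in wild-type replicate 1 and 218 to 229 in the other wild-type libraries. Sh2d3c had 174.7 in wild-type replicate 3 and 214 to 223 in the others. Sh2d7 had 29.4 in knock-out replicate 6 and 42.6 to 47.3 in the others.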

How the results depend on the processing

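The 4 genes stayed far lower in the knock-out under every alternative that gave them a value, and the size of the difference depended on the scale for those with few reads left. The log2 difference of Nipal1 was -9.61 with DESeq2, -9.41 with edgeR, -10.35 with a pseudocount of 0.1 and -5.27 with a pseudocount of 5. For Sh2d1a these were -7.78, -7.57, -8.39 and -4.98. Susd3 was at -6.47 with a pseudocount of 5, and Reep6 at -5.60 with total-count scaling. Leaving out 1 library of either genotype gave -6.77 to -6.65 for Susd3 and -5.77 to -5.71 for Reep6. Leaving out 1 knock-out library gave -7.60 to -7.41 for Nipal1 and -6.90 to -6.60 for Sh2d1a. These 2 genes met the filter through the 5 wild-type libraries alone, so no alternative that leaves out a wild-type library gave them a value.

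Total-count scaling called 5861 genes higher and 1711 lower (3448 and 3304 as reported). It gave 1 relative lower, 16 endoplasmic reticulum genes higher, 0 magnesium transport genes lower, 6 neighbours higher and 0 T and NK markers lower. It took the Reep sum to 11.6% higher and the NIPA sum to 4.83% higher. An adjusted p under 0.01 left 2 relatives, 5 endoplasmic reticulum genes and 4 magnesium transport genes higher, and 0 T and NK markers lower. Without a filter 7 T and NK markers were higher. A filter of 50 left 1 SLAM gene higher and 0 lower. Without the shallowest library of each genotype 0 SLAM genes and 0 T and NK markers were lower, and the Susd sum was 2.79% higher (exact permutation adjusted p = 0.095). edgeR and DESeq2 without wild-type replicate 5 each gave 3 relatives higher and 0 SLAM genes lower; the lost SLAM gene, Slamf1, then falls below the filter. Leaving out 1 library gave 3 to 5 relatives higher, 0 to 1 SLAM genes lower, a NIPA sum of -5.73% to -3.93% (exact permutation adjusted p of 0.032 to 0.108) and a Susd sum of 1.97% to 3.19% (0.032 to 0.105).

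No pairing of same-numbered libraries of the genotypes was seen. Correlations of their deviations were 0.147, 0.0498, 0.101, -0.131 and 0.225, and none of the 5 correlated best with its own number. So few correlations cannot exclude a pairing. With the replicate block 3 relatives were higher, in place of 5. Of 608 recomputed counts, sums and member differences, 548 kept their direction and side of the threshold or stayed within the limit set for a change. Depth limits Nipal1 and Sh2d1a in the knock-out, which rest on 1 and 5 reads. The cause of these changes with settings was not tested.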
